A study of Mus musculus with 8 samples.

Results

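Nuclear genes of oxidative phosphorylation were taken by symbol. The rule accepted Nduf names with a, b, c, s or v and a number, the 4 Sdh genes, every Uqcr and Atp5 name, and Cox4 to Cox8 names followed by a, b or c, and it left out names ending in -ps. Of the 27179 genes in the expression table, 86 met it by their RefSeq symbol. They were counted here as 40 genes of complex I, 4 of complex II, 8 of complex III, 17 of complex IV and 17 of complex V. *Ndufa4*, a subunit first described in complex I and now placed in cytochrome c oxidase, was counted with complex IV. RefSeq lists 84 of the 86 as protein coding and 2, *Ndufs6b* and *Ndufa11b*, as pseudogenes.

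C2C12 cells, an immortalized line of mouse myoblasts, were grown at around 50% confluence with 10% fetal bovine serum (GM), where they divide. At over 90% confluence the other cultures were moved to 2% horse serum and taken on day 3 (3d DM), by which time myoblasts fuse into myotubes. No genetic change and no other agent is given for either state. Each state had 2 input RNA libraries, which gave the expression values, and 2 libraries precipitated with an antibody against N6-methyladenosine (m6A), a methyl mark within mRNA, which gave 1 peak list each. The labels number the replicates but do not say that they came from separate cultures, so p-values measure only the spread between these samples, which may be technical.

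Oxidative phosphorylation makes most of the ATP of a working muscle. Complex I takes electrons from NADH and complex II from succinate, both pass them to ubiquinone, complex III hands them on to cytochrome c, and complex IV gives them to oxygen. The protons pumped on the way drive complex V, the ATP synthase. A few core subunits are made inside the mitochondrion, and all the others come from nuclear genes such as these. Heart and skeletal muscle also use their own versions of several small complex IV subunits, which replace ubiquitous versions as muscle matures.

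The expression values are the authors' normalized signal, in which the 4 libraries sum to nearly the same total, so a library's depth is unknown and no counting error is given. A single entry of the table took 24.4 to 41.3% of each total, most in 3d DM replicate 1. In all, 11406 genes passed a floor of 25.1 (2 cpm of the column sum) in 2 or more libraries and were tested with limma on log2(value + 1). Their median log2 fold change, 3d DM over GM, was -0.22, and changes of members are read against it. The main fit took each gene's spread wholly from tested genes of similar value. Its SEs and p-values thus rest on that pooled spread and not on the gene's own replicates. The state of the cultures followed the labels: 8 of 8 markers of myotubes were called higher in 3d DM and 5 of 5 markers of cycling cells lower, at an adjusted p of 0.05 by limma. GM replicate 1 also held more myotube RNA than GM replicate 2, with summed values of the 8 markers of 9246 and 1794 against 113260 and 148737 in 3d DM. Of 4 markers of the myogenic lineage, *Des* was called higher (log2 fold change 1.36) and *Myf5* lower (-2.14), and *Spry1* (2.91) was called among the 2 tested markers of reserve cells. Of 4 markers of other mesenchymal cells, *Adipoq* was listed at 0 in all libraries, and the summed values ranged from 820.0 to 3597 in GM and from 1103 to 1288 in 3d DM. The RNA is bulk RNA, so a change in the share of cells of a kind and a change in RNA per cell cannot be told apart.

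Only 2 of the 77 tested members were called higher in 3d DM, *Cox6a2* and *Cox8b*, and 0 were called lower, by limma with Benjamini-Hochberg adjustment over all tested genes at 0.05. Of all tested genes, 7.01% were called higher and 9.96% lower. Both called genes passed the floor only through 3d DM, where they were high, so they had to differ to be tested at all. With the floor asked of 3 libraries, neither was tested and 0 of 75 members were called. That stricter floor is the filter of the published methods. At an unadjusted p of 0.05 the same 2 members were higher and 0 were lower. The other 75 tested members had log2 fold changes between -0.69 and 0.81, and the median standard error over the 77 was 0.43. The median over the 77 was 0.01, with 41 members above 0 and 36 below, and 59 of the 77 lay above the median of all tested genes. The direction of these small changes depended on the scaling. After rescaling by median-of-ratios factors the median of all tested genes moved from -0.22 to 0.00 and that of the members from 0.01 to 0.24, while the gap between them was 0.24 both times. With that rescaling 5 members were called higher, *Cox6a2*, *Cox8b* and *Atp5e* among them, and 0 lower, where 12.0% of all tested genes were called higher, and higher genes made up 51.6% of all calls instead of 41.3%. The gap itself rested on single libraries. It was -0.01 without 3d DM replicate 1, 0.02 without GM replicate 2, 0.40 without GM replicate 1 and 0.44 without 3d DM replicate 2.

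**Figure D1:**
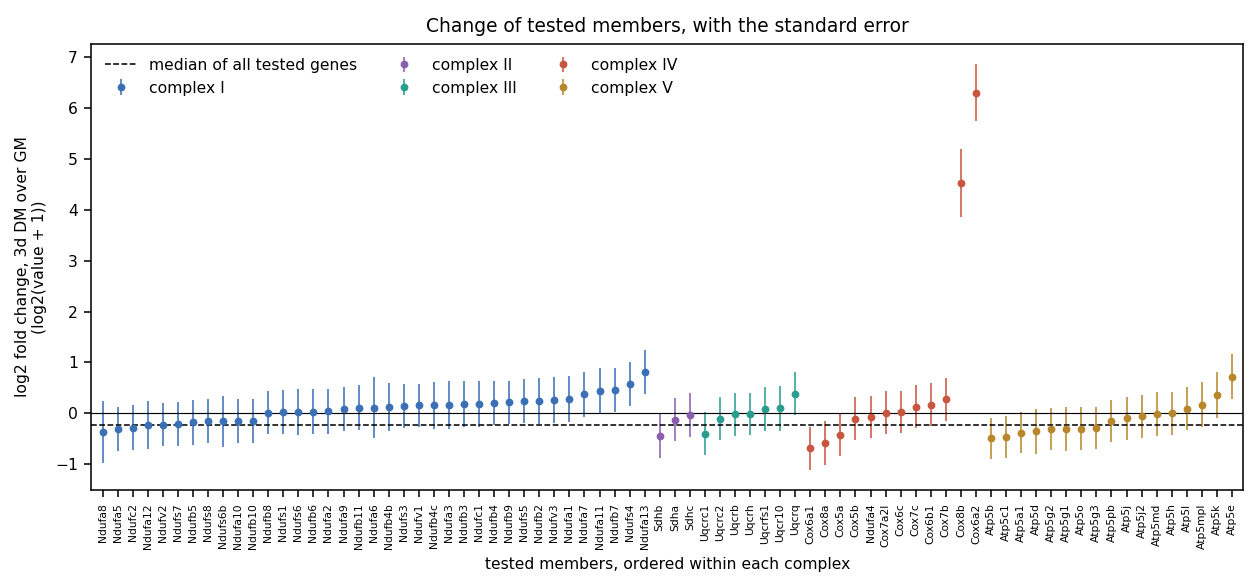
Log2 fold change (3d DM over GM, on log2(value + 1)) of 76 of the 77 tested members, ordered within each complex, with the standard error of the limma fit as bars; the dashed line is the median of all tested genes, -0.22. All members drawn but *Cox6a2* and *Cox8b* lie between -0.69 and 0.81.

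*Cox6a2* and *Cox8b* are the heart and skeletal muscle versions of subunits 6A and 8 of cytochrome c oxidase. *Cox6a2* read 8.49 and 3.02 in the GM libraries, replicate 1 first, against 421 and 563 in 3d DM. Both 3d DM values lay far above both GM values. The log2 fold change was 6.30 ± 0.56 (SE from the pooled spread, n = 2 and 2, limma adjusted p = 9.63e-27). This gene and *Cox8b* were tested only because they were high in 3d DM, so their p-values here are not support for a difference. The exons of *Cox6a2* share 10.6% of their bases with *Itgad*, which lies on the opposite strand. *Cox8b* read 19.2 and 0.0133 in GM against 107 and 100.1 in 3d DM. It was therefore higher in 3d DM in every pairing, but its GM libraries differed from each other by more than its 3d DM libraries did, and the second was listed near 0. The fitted log2 fold change of *Cox8b* was 4.53 ± 0.67 (SE, n = 2 and 2; limma adjusted p = 5.68e-10). It moved from 3.48 to 6.13 with pseudocounts of 4 and 0.1, and was 2.37 without GM replicate 2 and 6.69 without GM replicate 1. Under the 3 rescalings of the libraries, a gene's own spread had weight in the fit, and both genes had far larger p-values. The adjusted p by limma was then 0.000212 to 0.00138 for *Cox6a2* and 0.0273 to 0.0480 for *Cox8b*. Without 3d DM replicate 1 or 2 a lone library stands for 3d DM, so only the size of the change is given. It was then 4.48 and 4.57 for *Cox8b* and 6.51 and 6.10 for *Cox6a2*. GM replicate 1, in which both genes read higher than in GM replicate 2, is also the GM library with the higher myotube markers, whose part in these values was not tested.

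The ubiquitous partners read lower in 3d DM without passing the test. *Cox6a1* read 2457 and 1462 in GM against 1083 and 1276 in 3d DM (log2 fold change -0.69 ± 0.42 (SE), limma adjusted p = 0.308), the lowest change among the tested members. *Cox8a* read 1658 and 1036 in GM against 754 and 1011 in 3d DM (-0.58 ± 0.43, 0.422 by limma). In neither gene did the groups overlap, although the second GM library and the nearer 3d DM library of *Cox8a* were almost equal. Of all tested genes, 37.0% had both 3d DM values below both GM values. Levels of different genes were compared per kb of exon. Within the pair *Cox6a2* and *Cox6a1*, *Cox6a2* made up 0.281% and 0.168% of the summed value per kb in GM against 24.1% and 26.5% in 3d DM. Within *Cox8b* and *Cox8a*, *Cox8b* made up 1.71% and 0.00193% in GM against 17.54% and 12.95% in 3d DM. The ubiquitous version thus stayed the larger part of both pairs on day 3.

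No such rise could be read in the other pairs. *Cox7a1*, the muscle version of subunit 7A, read 18.1 and 2.02 in GM against 21.5 and 23.5 in 3d DM, below the filter on low values, and GM replicate 1 lay close to the 3d DM libraries. Its ubiquitous partner *Cox7a2* was listed at 2.14, 0.00204, 0.039 and 0.750, so the pair could not be read. *Cox6b2* and *Cox7b2*, versions of subunits 6B and 7B described in testis, were listed at no more than 2.21 and 1.13 in any library. Their widely expressed partners read 2066 and 1188 in GM against 1735 and 1785 in 3d DM (*Cox6b1*) and 1858 and 1187 in GM against 1798 and 1785 in 3d DM (*Cox7b*). Both had overlapping groups, as did *Ndufa4*, with 2411 and 1788 in GM against 2059 and 1904 in 3d DM, whose paralog *Ndufa4l2*, a gene known for its response to low oxygen, was listed at no more than 2.22.

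**Figure D2:**
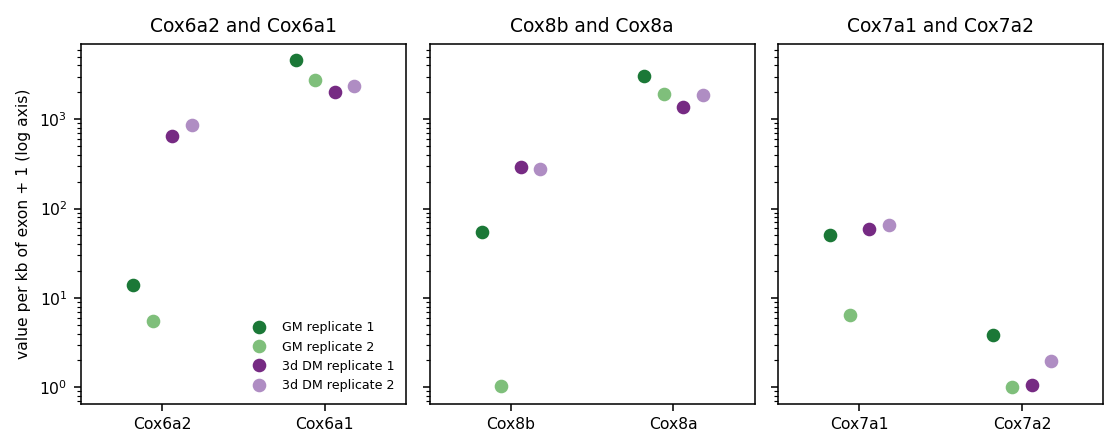
Value per kb of exon plus 1 (log axis) of 3 muscle versions of complex IV subunits and their ubiquitous partners in each of the 4 libraries. *Cox6a2* and *Cox8b* are above both GM libraries in both 3d DM libraries and below their partners in every library, while *Cox7a2* is listed near 0.

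The windows before the start sites of the Cox8 pair are shown because its genes had changes of opposite sign, that of *Cox8a* without passing the test. They are the 250 bases upstream, from RefSeq on GRCm38.p6 (the mm10 build), *Cox8b* at chr7:140900447-140900696 and *Cox8a* at chr19:7217617-7217866, both on the minus strand and written in the gene's own direction. Capitals mark CAGCTG, an E-box of the kind that MyoD and myogenin favour, searched on both strands, which read alike. The table holds no window for *Cox6a2*.
*Cox8b*: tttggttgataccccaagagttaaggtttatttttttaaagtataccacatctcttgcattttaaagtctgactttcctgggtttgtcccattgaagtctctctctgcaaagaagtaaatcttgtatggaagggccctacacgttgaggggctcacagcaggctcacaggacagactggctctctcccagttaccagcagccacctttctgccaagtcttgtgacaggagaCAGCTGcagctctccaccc
*Cox8a*: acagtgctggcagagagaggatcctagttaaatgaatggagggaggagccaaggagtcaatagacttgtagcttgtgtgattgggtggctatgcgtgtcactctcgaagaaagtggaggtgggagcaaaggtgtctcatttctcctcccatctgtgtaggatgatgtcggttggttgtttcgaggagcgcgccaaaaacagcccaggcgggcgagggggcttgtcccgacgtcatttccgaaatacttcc
The *Cox8b* window holds the E-box at position -19 from the start, and the *Cox8a* window holds none. This motif was chosen after the values were seen. It was found in 6 of the 69 members with a 300-base window (8.70%), *Atp5b* among them, and in 17.7% of tested genes with a window, and the *Cox7a1* window did not hold it.

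Complex I is the largest of the complexes, and its 38 tested genes had a median log2 fold change of 0.12. Of these, 27 were above 0, 33 above the median of all tested genes and 0 called in either direction in the main fit. *Ndufb7*, named after its values were seen, was among the members called higher under median-of-ratios and trimmed-mean rescaling. Under the first, 12.0% of all tested genes were called higher. *Ndufa13*, an accessory subunit also known as GRIM-19, had the largest change without passing the test, with 919 and 379 in GM against 1001 and 1067 in 3d DM (log2 fold change 0.81 ± 0.43 (SE), limma adjusted p = 0.224). Its groups did not overlap, but the log2 ratio of GM replicate 2 to GM replicate 1 was -1.27, and its change was 0.17 without GM replicate 2. Its exons share 29.6% of their bases with *Tssk6* on the opposite strand. *Ndufs4*, an accessory subunit whose loss is a known cause of Leigh syndrome, had close replicates, with 635 and 618 in GM against 920 and 936 in 3d DM (0.57 ± 0.43, 0.453 by limma). These and *Ndufa7* and *Ndufa11*, named after their values were seen, were among the 5 complex I genes whose groups did not overlap, all 5 higher in 3d DM, where 16.8% of all tested genes had both 3d DM values above both GM values. The lowest change was that of *Ndufa8* (-0.37), with 60.2 and 25.1 in GM against 26.8 and 33.2 in 3d DM. *Ndufb4*, *Ndufb4b* and *Ndufb4c*, near copies of each other, and *Ndufs6* with the pseudogene *Ndufs6b* had changes from -0.16 to 0.20. Reads may be split among the Ndufb4 genes. For *Ndufs6*, no stretch of at least 50 nt matched elsewhere in the genome at 97% identity.

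The 3 readable genes of complex II, which is coded by the nucleus alone, had changes from -0.45 to -0.03. *Sdhb*, the iron-sulphur subunit, read 1407 and 995 in GM against 830 and 900.2 in 3d DM, with both 3d DM values lower (-0.45 ± 0.43, limma adjusted p = 0.575). *Sdha*, the flavoprotein that oxidizes succinate, read 2167 and 1660 in GM against 1559 and 1931 in 3d DM. *Sdhc*, a membrane anchor, read 1083 and 828 in GM against 729 and 1173 in 3d DM, and in both genes the groups overlapped. *Sdhd*, the other anchor, was listed at 1.06 and 0.00104 in GM and at 0 in 3d DM.

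Complex III showed no called gene among 7 tested, with a median change of -0.01. *Uqcrq*, a small subunit, read 1304 and 990.5 in GM against 1317 and 1664 in 3d DM (0.38 ± 0.42, limma adjusted p = 0.649), and *Uqcr10*, another, read 704 and 563 in GM against 625 and 724 in 3d DM (0.09). *Uqcrc1*, a core protein, had the lowest change (-0.40 ± 0.42), with 1639 and 1382 in GM against 940.4 and 1382 in 3d DM, where the second library of each state differed by less than 1 in value. The gene with the highest value, the hinge protein gene *Uqcrh*, read 2190 and 1337 in GM against 1670 and 1724 in 3d DM with a change of -0.01. Its 3d DM libraries lay between its GM libraries.

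In complex IV the 2 called genes stood apart from 10 others between -0.69 and 0.27. *Cox6c*, the complex IV gene with the highest value, read 3178 and 1723 in GM against 2587 and 2159 in 3d DM (0.01 ± 0.41). *Cox5a*, named after its values were seen, which like *Cox6a1* and *Cox8a* had both 3d DM values below both GM values, read 1113 and 959 in GM against 686 and 867 in 3d DM (-0.42 ± 0.43). Of all tested genes, 37.0% had that order. *Cox7a2l*, which joins complexes III and IV into supercomplexes, read 1671 and 940.3 in GM against 1142 and 1400.0 in 3d DM.

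The 17 genes of complex V had a median change of -0.15, with 4 above 0, 9 above the median of all tested genes and 0 called. *Atp5b*, the catalytic beta subunit and the highest of all members, read 17793 and 13487 in GM against 9792 and 12298 in 3d DM (-0.50 ± 0.40, limma adjusted p = 0.485). The alpha and gamma subunits *Atp5a1* and *Atp5c1* had the same order, at 6972 and 5648 against 4100.0 and 5620 and at 3397 and 2472 against 1936 and 2261. Those 3 genes, *Atp5d* and *Atp5g1*, all but *Atp5b* named after their values were seen, had both 3d DM values below both GM values. They were 5 of the 17, where 37.0% of all tested genes had that order. *Atp5e*, the epsilon subunit of the central stalk, had the opposite order, with 496 and 436 in GM against 691 and 846 in 3d DM (0.72 ± 0.44, limma adjusted p = 0.309), and all 3 rescalings of the libraries that were tried called it higher with adjusted p from 0.0154 to 0.0223 by limma. *Atp5k*, a small membrane subunit, read 566 and 279 in GM against 507 and 515 in 3d DM (0.36).

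Over the 77 tested members, 9 had both 3d DM values above both GM values and 10 had both below, where 16.8% and 37.0% of all tested genes did. By complex the 9 were 5 of complex I, 1 of complex III, 2 of complex IV and 1 of complex V, and the 10 were 0, 1 each of complexes II and III, 3 of complex IV and 5 of complex V. The ratio of one complex to another within a library does not depend on the scaling of libraries. The summed values of complex V over those of complex I were 1.78 and 1.97 in GM against 1.34 and 1.39 in 3d DM. Without *Atp5b* and *Atp5a1* the ratio was 0.909 and 0.958 in GM against 0.759 and 0.741 in 3d DM, so the groups did not overlap in either case. The median of gene-wise log2 values of complex V minus that of complex I, each gene centred on its mean, was 0.07 and 0.25 in GM against -0.22 and -0.09 in 3d DM. This ratio was picked out after the values were seen, as 1 of 10 pairs of complexes. Summed ratios did not overlap between the states in 8 of the 10 pairs. The exact two-sided permutation test over libraries gave p = 0.333 for complex V over complex I, the smallest that 2 against 2 libraries allow, and 0.417 after adjustment over the 10 pairs. By summed values the ratios of complexes II, III and IV to complex I were also lower in both 3d DM libraries than in both GM libraries. By medians complex III against complex I overlapped, and 6 of the 10 pairs did not overlap.

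**Figure D3:**
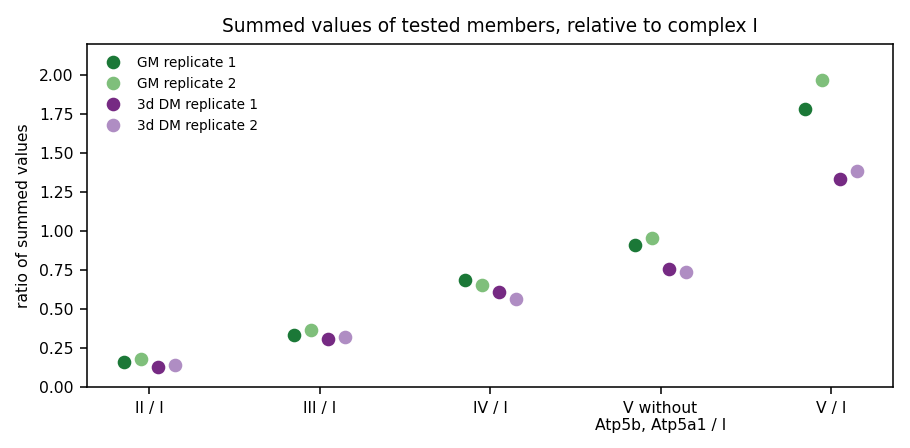
Ratio of the summed values of tested members of complexes II to V to those of complex I, 1 point per library. The ratio of complex V to complex I is 1.78 and 1.97 in GM against 1.34 and 1.39 in 3d DM, and the groups also do not overlap without *Atp5b* and *Atp5a1*.

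The GM replicates had a larger median difference in these genes than over all tested genes. All 77 tested members read lower in GM replicate 2 than in GM replicate 1, with a median log2 ratio of -0.60, where 67.4% of all tested genes did, with a median of -0.21. In 3d DM, 60 of the 77 read higher in replicate 2, with a median log2 ratio of 0.19, against 93.7% of all tested genes with a median of 0.51. Members tend to be short, with a median exon length of 750 nt against 3175 nt over the tested genes. In the 48 members under 1000 nt the GM ratio was -0.68 and in the 27 longer ones -0.40, while tested genes of these lengths had -0.41 and -0.20. The same order by length was thus seen outside the members, and what part length has in the difference was not tested. Summed over the members the share of all values was 0.900% and 0.631% in GM against 0.650% and 0.757% in 3d DM, so the GM libraries enclosed the 3d DM libraries. The direction of the median turned with the GM library left out. The median change was 0.29 without GM replicate 1 and -0.32 without GM replicate 2.

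**Figure D4:**
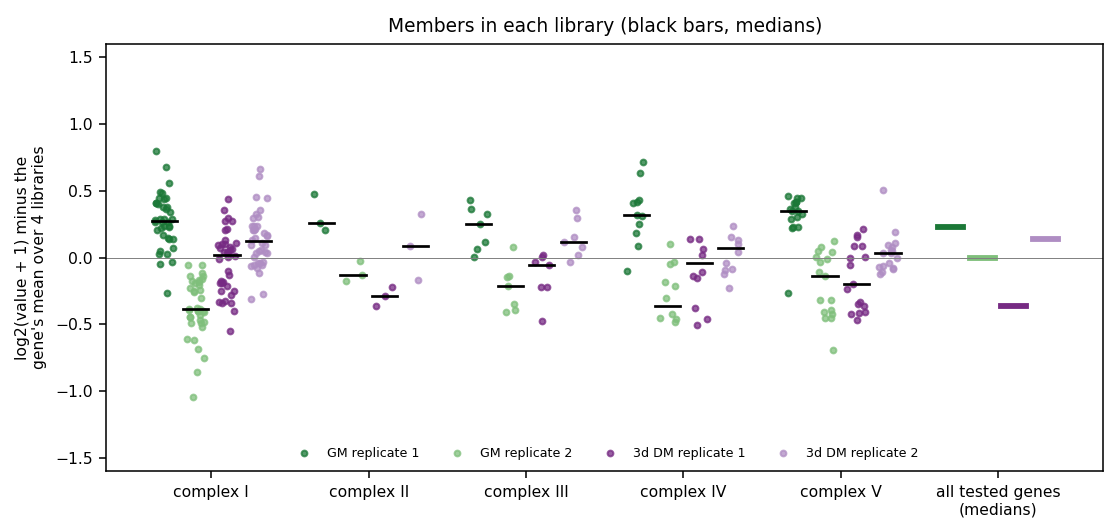
Log2(value + 1) of each tested member minus its own mean over the 4 libraries, by complex and library; black bars are medians, and the coloured bars at the right are the medians of all tested genes. The 7 points of *Cox6a2* and *Cox8b* that lie beyond the axis are not drawn. GM replicate 2 has the lowest median in complexes I, III and IV, and 3d DM replicate 1 in complexes II and V and over all tested genes.

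Per kb of exon, members were abundant messages. Their median was 1109 and 778 in GM, then 851 and 995 in 3d DM. Over the tested genes with an exon length the medians were 102 and 87.3 in GM, then 67.5 and 96.9 in 3d DM. Complexes IV and V had the highest medians, 1894 to 2986 and 1673 to 2841 over the 4 libraries, and complexes I and II the lowest, 533 to 880.1 and 619 to 918, with complex III between them at 834 to 1091 and overlapping complex II. *Atp5b* had the highest mean, 7101 per kb, followed by *Cox6c* (4795) and *Ndufa4* (4106), and *Ndufa8* (45.7) and *Ndufa6* (74.5) the lowest among tested members. Reads of copies bear on some of these levels. At 97% identity over at least 50 nt, 21 of the 84 members with a curated transcript matched another place in the genome, *Atp5g2*, *Atp5h*, *Ndufb4* and *Ndufb4c* over their whole length. The 56 tested members without such a match had a median change of 0.02.

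Low values need care in this table. The 9 members below the filter were *Cox7a1*, *Ndufa4l2*, *Cox6b2*, *Cox7a2*, *Ndufa11b*, *Cox7b2*, *Sdhd*, *Uqcr11* and *Cox8c*, and 8 of them were listed under 3 in every library. *Ndufa11b* was listed at 0 in GM and at 0.0763 and 1.54 in 3d DM, and *Uqcr11* and *Cox8c* at 0 throughout. Among these are *Cox7a2*, *Sdhd* and *Uqcr11*, which code for subunits of widely used complexes. *Sdhd* nevertheless had a peak in its 3' UTR in all 4 lists, over chr9:50596357-50596562 on mm10, with folds of 5.25 and 2.37 in GM against 4.37 and 4.44 in 3d DM and p-values down to 2.0e-28. *Ndufa6* and *Ndufa8*, with values of 26.5 to 62.8 and 25.1 to 60.2, had peaks in 4 and 3 lists. None of *Cox7a2*, *Sdhd*, *Uqcr11*, *Ndufa6* and *Ndufa8* shares curated exon bases with another gene, and of the 5 only *Uqcr11* has a near-identical stretch elsewhere, over 87.2% of its length. Their listed values are given as they stand and are not read as absence.

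Genes that work with the members gave few calls. Of 13 subunits coded in the mitochondrial genome, 0 were called in either direction by limma, their median log2 fold change was 0.10, and 9 lay above the median of all tested genes. All 13 read lower in GM replicate 2 than in GM replicate 1, as the 77 nuclear members did. *ND5*, a proton-pumping subunit of complex I, had the largest change (0.75 ± 0.40 (SE), limma adjusted p = 0.220), at 16423 and 12416 in GM against 25378 and 22689 in 3d DM, and was the only one of the 13 whose groups did not overlap. *ND4L* had 0.61, and *ND3* and *ND1* had the lowest changes, -0.46 and -0.38. Of 43 assembly factors, which build the complexes without being part of them, 41 were tested and 0 called, with a median of -0.04 and a range from -1.0 (*Ndufaf6*) to 0.91 (*Cox14*). At an unadjusted p of 0.05 by limma, 0 and 0 of the mitochondrial genes and 1 and 0 of the assembly factors were higher and lower.

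Of 12 carriers and subunits whose names fall outside the rule, 11 were tested and 0 called, with a median of -0.39 and 1 higher and 3 lower at an unadjusted p of 0.05 by limma. *Cycs*, cytochrome c itself, read 3223 and 2832 in GM against 1333 and 1688 in 3d DM (-1.01 ± 0.41, limma adjusted p = 0.0773). *Coq7* and *Coq9*, both of ubiquinone synthesis, had opposite changes of -1.14 and 1.01. *Cox4i1*, the main version of complex IV subunit 4, read 3454 and 2297 in GM against 2849 and 3146 in 3d DM (0.09), and its paralog *Cox4i2* was listed at 0.

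Of 14 enzymes of the tricarboxylic acid cycle, 1 was called lower and 0 higher, where 9.96% and 7.01% of all tested genes were. Their median was -0.31, and 7 had both 3d DM values below both GM values, where 37.0% of all tested genes did. The called gene was *Idh2*, mitochondrial isocitrate dehydrogenase, with 2311 and 1296 in GM against 618 and 982 in 3d DM (-1.15 ± 0.42, limma adjusted p = 0.0419). Of 16 regulators of mitochondrial genes, 12 were tested and 0 called, with a median of -0.39 and 0 higher and 1 lower without adjustment. *Nrf1*, an activator of respiratory genes, had -0.91, and *Tfam*, which packages mitochondrial DNA, had -0.62, both with both 3d DM values lower. *Ppargc1a*, the coactivator PGC-1alpha, read 60.4 and 6.05 in GM against 21.9 and 31.1 in 3d DM, so its GM libraries enclosed the others.

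Peak lists give a fold of the m6A precipitate over the input for each stretch that passed the authors' caller. At least 1 peak was listed for 35 and 32 of the 86 members in the GM lists, replicate 1 first, and for 30 and 53 in those of 3d DM. Among all tested genes 64.2% and 60.7% had a peak in GM, then 63.1% and 53.8% in 3d DM. The shares of the 86 members were 40.7% and 37.2%, then 34.9% and 61.6%, and the 86 include 9 that were not tested. Of the 77 tested members, 44.2% and 40.3% had a peak in GM, then 37.7% and 66.2% in 3d DM. The second 3d DM list thus stood apart, with more members and fewer tested genes than the others. Between the states the mean number differed by 8.0 members (exact two-sided permutation p = 1.0 over 2 and 2 libraries, where 0.333 is the smallest possible), and it was -3.5 without 3d DM replicate 2. Short messages had fewer peaks in general. Of tested genes under 1000 nt, 38.1% and 41.6% had a peak in GM against 33.5% and 46.5% in 3d DM, close to the 37.5%, 39.6% and 33.3% of members of that length in the first 3 lists and below the 66.7% in the last.

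All 4 lists held a peak for 22 members (25.6%), where 42.8% of all tested genes had one. These 22 were 13 of complex I, 1 of complex II, 2 of complex III, 2 of complex IV and 4 of complex V, and in each of the 22 the peaks of the 4 lists shared bases. A further 30 members had none in any list (34.9%, against 23.5% of tested genes), and 12 were in the list of 3d DM replicate 2 only. Both member shares are over the 86, which include 9 untested members, such as *Uqcr11* and *Cox8c* without a peak. The shares of tested genes leave such genes out. No member had a peak in both GM lists and neither 3d DM list, where 2.65% of all tested genes did. The reverse held for 3 of the 86, *Ndufb2*, *Ndufb3* and *Cox6a2*, and for 1.75% of all tested genes. The *Cox6a2* peaks, over the end of the coding sequence and the 3' UTR, had folds of 1.5 and 2.54. *Cox6a2* read 8.49 and 3.02 in GM, and a lack of the mark and a lack of message cannot be told apart there.

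Member peaks were weak. The median fold of the strongest peak was 2.19 and 1.91 in GM, then 2.25 and 2.80 in 3d DM. In the same order it was 5.65, 4.92, 4.87 and 5.29 for tested genes and 3.09, 2.71, 2.71 and 3.17 for tested genes under 1000 nt. Over the 22 members in all lists the median log2 fold was 1.37 and 1.03 in GM against 1.19 and 1.74 in 3d DM. The states overlapped, with a difference of 0.26 (exact two-sided permutation p = 0.667) that was -0.01 without 3d DM replicate 2. Over the 4954 genes with a peak in all lists the same difference was -0.13.

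The 5 members with the highest mean fold among the 22 were *Ndufv3*, *Sdhd*, *Cox7b*, *Cox7a2l* and *Ndufs4*. *Ndufv3*, a subunit of the NADH-binding module of complex I, had folds of 2.99 and 5.14 in GM against 4.60 and 3.97 in 3d DM. *Cox7b*, a small complex IV subunit, had 2.02 and 1.83 in GM against 3.81 and 8.35 in 3d DM, with both 3d DM folds higher. Its message matches another place in the genome over 46.0% of its length. *Cox7a2l* had 5.86 and 3.56 in GM against 3.00 and 3.24 in 3d DM, with both 3d DM folds lower, and matches elsewhere over 93.5%. Outside the 5, *Ndufv2* also had both 3d DM folds higher and *Ndufb7* both lower. The share of all genes with such an order was not taken. *Ndufs4* had 7.0 and 2.2 in GM against 2.29 and 3.46 in 3d DM, a wide GM range. *Cox7a1*, below the filter on low values, had 1 peak, in 3d DM replicate 2, with a fold of 10.0 and a p-value of 0.00178 from the peak caller. Higher folds stood only in single lists, 12.2 for *Ndufb8* in GM replicate 1 and 10.6 for *Ndufb2* in 3d DM replicate 1, both named after their values were seen. The caller's p-values were 0.00115 and 3.5e-05. The strongest *Ndufb2* peak of 3d DM replicate 2 lay elsewhere in the gene.

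**Figure D5:**
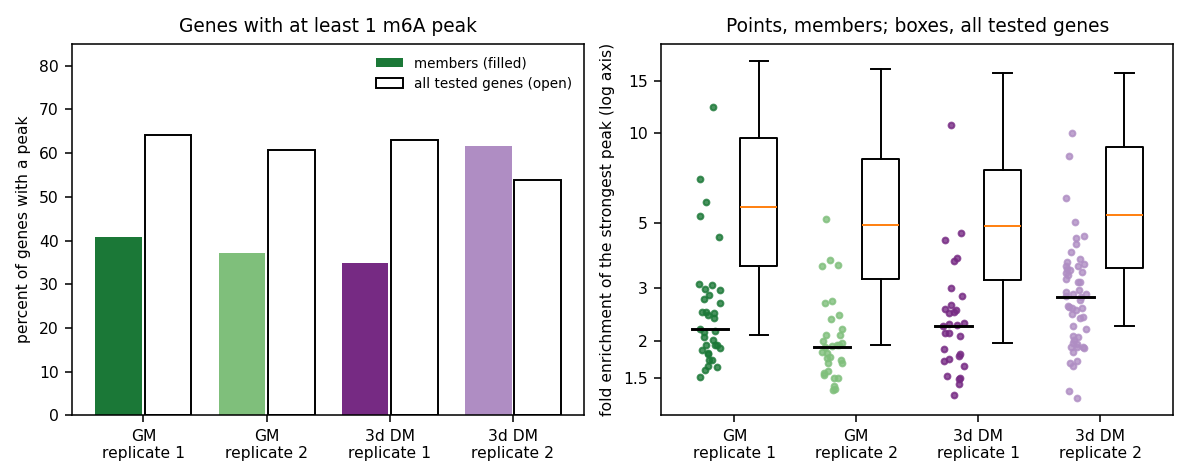
Left, percent of the 86 members (filled bars) and of all tested genes (open bars) with a peak in each of the 4 lists. The 86 include 9 members that were not tested. Right, the fold (log axis) of each gene's strongest peak, with quartile boxes for tested genes (whiskers from the 5th to the 95th percentile) and points for members with their median as a black bar. Member medians are 2.19, 1.91, 2.25 and 2.80, each below the box median of its list.

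The letters GGACT, the most common core of m6A sites, were found in the strongest peak of 6 and 4 members in GM against 6 and 10 in 3d DM, or 17.1%, 12.5%, 20% and 18.9%. Tested genes had it in 40.6%, 40.8%, 39.0% and 33.5%, and those under 1000 nt in 29.3%, 33.8%, 32.0% and 30.5%. Member peaks had median lengths of 190.0 to 207 nt over the lists, against 238 to 329 nt, and only the strand of the message was searched. The 29-base windows below are shown because they lie within peaks of all 4 lists. They are in the direction of the message, on mm10, with GGACT in capitals.
*Cox7a2l*, chr17:83502278-83502306, minus strand: ctcagggcctcgGGACTcaggcggtgtct
*Cox7a2l*, chr17:83501938-83501966, minus strand: ttatgattgaccGGACTgcggaataaaca
*Ndufb7*, chr8:83570966-83570994, plus strand: gcagcacgactgGGACTactgcgagcacc
*Uqcrh*, chr4:116074950-116074978, minus strand: gctcccgacatgGGACTagaggacgaacg
A window of *Atp5pb* also lies within peaks of all 4 lists. It is not shown because the strongest peak of *Atp5pb* held GGACT in 3d DM replicate 2 only. The *Uqcrh* peaks covered 84.3 to 89.6% of its message, so nearly any window in it would lie within them. A match within a peak is a description and no mapped site.

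What the members shared beyond their names was looked for in 300-base windows, 250 before and 50 after the start, which RefSeq on GRCm38.p6 gave for 69 of the 86 and for 8911 tested genes. Motifs were searched on both strands. The YY1 core AANATGGC was in 17 of the 69 (24.6%) against 10.7% of tested genes, and in 12 of 32 windows of complex I (37.5%). The core of the factor NRF1, TGCGCATG, was in 8 (11.6% against 4.75%), the site of estrogen-related receptors, TGACCTTG or TNAAGGTCA, in 5 (7.25% against 1.68%), and the Ets core CCGGAAGT in 5 (7.25% against 9.83%). Of the YY1 matches, 55.6% in members and 45.6% in tested genes lay after the start. The share on a start codon was not taken over tested genes. Of the 13 matches in complex I, 8 had their ATG on the annotated start codon, where the letters also serve the protein. Windows of 20 bases around 4 of these 8 are shown, in the direction of the gene with the core in capitals, since they look alike.
*Ndufs4*, chr13:114388046-114388065, minus strand: tacaggAAGATGGCggcggt
*Ndufs6*, chr13:73328436-73328455, minus strand: accggcAAGATGGCggcggt
*Ndufs7*, chr10:80249467-80249486, plus strand: gaggccAAGATGGCggcgct
*Ndufc1*, chr3:51408920-51408939, minus strand: cggaacAAGATGGCgccgtc
None of these 4 genes was called between the states.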

How the data were processed

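Expression and m6A peaks were taken from 4 input and 4 precipitated libraries of C2C12 cells. The authors aligned reads to mm10 with HISAT2 2.1.0 and normalized gene values with TMM in edgeR. The deposited signal is normalized and holds no counts, so the count model of the methods was replaced by limma 3.58.1 (R 4.3.3, trend) on log2(value + 1). A gene was tested at 2 cpm of the column total in at least 2 libraries, where the methods ask for 3, which was run as an alternative. The peak caller was exomePeak, run by the authors for each sample against its own input, and the deposited lists give a p-value and a fold ratio per peak. A member was counted once per list, by its strongest peak, and older names in the lists were matched to current ones. Copies were searched with blastn 2.17.0 (97% identity, 50 nt). Named genes were the isoform pairs, the 2 largest and the smallest change and the highest mean of each complex, all Sdh genes, the 5 highest mean folds among members with a peak in all lists and members below the filter. Members, lists and named genes were chosen with earlier results of these data known. Alternatives were other pseudocounts (0.1 and 4), filters, rescalings, peak thresholds, a replicate block and leaving out each library. The test was checked on simulated data in which a gene's spread followed its mean value, as the fit assumes. Genes with a wider spread were not checked. Values of 1 item that this rule would name are not reported here.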

Additional observations from a re-analysis of the deposited data

How the results depend on the processing

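The count of 2 called members was 0 with 3 libraries in the filter, which leaves *Cox6a2* and *Cox8b* untested, 5 under median-of-ratios and trimmed-mean rescaling, 4 without the largest entry, and 1 to 2 with a library left out (1 without 3d DM replicate 1 or 2). It stayed 2 with no filter, either pseudocount and no trend. Their median ranged from -0.32 to 0.29 with a library left out. The gain of members with a peak ranged from -3.5 to 19.5, and that of the log2 peak fold from -0.0079 to 0.535, both below 0 without 3d DM replicate 2. No member had peaks of 4-fold in all lists, so that alternative gave no fold.

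Of 271 values of 21 named members under an alternative, 26 changed sign, 0 of them called. Under median-of-ratios, trimmed-mean and largest-entry rescaling, *Ndufa4* was 0.158, 0.149 and 0.0366, *Sdhc* 0.193, 0.183 and 0.0713 and *Uqcrh* 0.215, 0.205 and 0.0928, and *Sdha* was 0.0985 and 0.0889 under the first and second. With a library left out, the ranges were -0.15 to 0.87 (*Atp5k*), -0.23 to 0.57 (*Cox6b1*), -0.43 to 0.46 (*Cox6c*), -0.0525 to 0.593 (*Cox7b*), -0.28 to 0.15 (*Ndufa4*), -0.99 to 0.24 (*Ndufa8*), -0.32 to 0.0638 (*Sdha*), -0.38 to 0.31 (*Sdhc*), -0.0665 to 0.256 (*Uqcr10*) and -0.37 to 0.34 (*Uqcrh*). The cause was not tested.

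With the replicate block 2 members were called, with a median of 0.01, and the mean number of members with a peak differed by 8.0. The differences between replicates 1 and 2 in GM and 3d DM correlated at 0.29 over tested genes, and 2 pairs do not establish a pairing. Depth is unknown, so low values carry no counting error.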
